A study of Mus musculus with 2 samples.

Results

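Pim1, Btg2 and Cd82 are 3 of the 500 genes read by MERFISH, an imaging method that decodes barcoded RNA molecules one at a time in tissue, in 2 sections of mouse liver. These genes were chosen because their counts were high in cells with erythroid markers, so their levels by cell class, their link to Mki67 and their place in the cell are given as descriptions without a test. The labels put both sections in 1 group, Liver_2d, as replicates 1 and 2, here sections 1 and 2. The tag 2d was not interpreted, and strain, age and sex are not stated in the sources used here. The series' design text speaks of mice with liver metastases given TA33 or TA33.Combo, but neither section's labels name a treatment, so groups could not be compared. Nothing says that the sections came from separate animals, and p-values measure only counting error and the disagreement between these sections, which may be technical.

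Red cells are made from dividing erythroblasts, which in rodents also occur in the liver outside the fetal period under some conditions. Erythropoietin binds the receptor Epor on these cells and signals through JAK2 and STAT5, and Pim1, a serine/threonine kinase that promotes survival and growth, is a known target of JAK-STAT signalling. Btg2 is an antiproliferative protein that is induced by p53 and binds the CCR4-NOT complex, which shortens poly(A) tails. Cd82 is a tetraspanin, a membrane protein that organises integrins and other receptors at the cell surface. It is also known as a suppressor of metastasis. Mki67 encodes Ki-67, a protein of dividing cells.

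The RefSeq promoter table, of build GRCm38.p6, lists 2 starts for Pim1, 1 for Btg2 and 4 for Cd82. The 250 bases before the first listed start of each gene are shown because the genes share an erythroid pattern, and they were searched for letters known to be bound by erythroid and JAK-STAT factors. They run 5′ to 3′ on the gene's strand, and capitals mark CG pairs. Pim1 lies at chr17:29490785-29496111 and its stretch at chr17:29490535-29490784 (plus strand). Btg2 lies at chr1:134074865-134079155 and its stretch at chr1:134079156-134079405 (minus strand). Cd82 lies at chr2:93419102-93462950 and its stretch at chr2:93462951-93463200 (minus strand). All are protein-coding genes, and the stretches lie upstream of them.
Pim1: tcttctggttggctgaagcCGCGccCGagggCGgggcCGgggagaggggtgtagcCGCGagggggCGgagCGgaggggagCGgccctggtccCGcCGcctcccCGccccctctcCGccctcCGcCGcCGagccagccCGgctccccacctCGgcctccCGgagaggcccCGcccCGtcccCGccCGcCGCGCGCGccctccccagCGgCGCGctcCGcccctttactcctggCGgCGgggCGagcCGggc
Btg2: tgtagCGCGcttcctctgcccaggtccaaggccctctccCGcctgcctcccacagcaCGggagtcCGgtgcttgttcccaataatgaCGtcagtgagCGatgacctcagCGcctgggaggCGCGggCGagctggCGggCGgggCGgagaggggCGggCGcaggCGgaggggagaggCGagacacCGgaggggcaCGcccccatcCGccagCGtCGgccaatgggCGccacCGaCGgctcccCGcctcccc
Cd82: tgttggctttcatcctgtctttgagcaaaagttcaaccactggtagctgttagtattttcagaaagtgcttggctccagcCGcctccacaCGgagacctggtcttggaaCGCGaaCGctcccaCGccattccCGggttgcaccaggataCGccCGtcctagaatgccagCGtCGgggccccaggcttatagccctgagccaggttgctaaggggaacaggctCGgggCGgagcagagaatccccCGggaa

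Neither the GATA letters (AGATAA or TGATAA, both strands) nor the STAT letters (TTCNNNGAA, both strands, where N is any base) occurred in the 250 bases before any of the 7 listed starts. Of all 32851 promoter stretches of that length, 16.6% held the GATA letters and 7.02% the STAT letters, so most promoters have no match either. The Pim1 stretch held 36 CG pairs at 82.4% G and C, and 2.58% of all stretches held as many. The Btg2 stretch held 27 CG pairs, a number reached by 8.56% of stretches, and the Cd82 stretch 14, reached by 29.4%. The median stretch held 6.

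The sections differed in depth and stand apart in several measures, which bears on every value below. Section 1 had 26037 segmented cells and 428386 gene counts, and section 2 had 85929 cells and 475382 gene counts. Cells with at least 10 gene counts and a volume of at least 50 were kept, 9209 (35.4%) with a median of 27 counts in section 1 and 16290 (19%) with a median of 15 in section 2. No cell identifier was shared between the sections. In kept cells Pim1 had 1571 and 489 counts, Btg2 2371 and 708, and Cd82 2466 and 703, in sections 1 and 2. The highest of the 50 blank barcodes, which name no gene, had 268 and 410 counts and the mean blank 51.3 and 19.2, so each gene was above the highest blank in both sections. Probes detect genes with unequal efficiency, so levels are compared between cells and not between genes.

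Cells were classed by their counts of marker genes, none of which is Pim1, Btg2, Cd82 or Mki67. An erythroid-like cell had at least 3 counts from at least 2 of the panel's 5 erythroid markers, making up at least 5% of its counts. These markers include Epor, Car2 (carbonic anhydrase 2), Cd24a (a surface glycoprotein of erythroblasts) and Klf1 (the erythroid Krüppel-like factor). This gave 760 erythroid-like cells in section 1 and 229 in section 2, with a median of 44 and 23 counts. All 5 markers were detected in both sections, and together they reached 1255 and 1643 per 10000 gene counts in erythroid-like cells. Of these cells, 82.1% in section 1 and 64.2% in section 2 also fell in the erythroid cluster of a clustering made without the 3 genes and Mki67. Hepatocyte-like cells, with at least 25% of counts from hepatocyte markers, numbered 4701 and 13443. Hepatocyte markers still made up 1540 and 2381 per 10000 counts of the erythroid-like class (3985 and 5119 in the hepatocyte-like class), and their part in the levels below was not tested.

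The kinase gene Pim1 was highest in erythroid-like cells in both sections. Its level there was 140 counts per 10000 gene counts in section 1 (95% exact Poisson interval 129 to 152, 596 counts) and 110 in section 2 (84.8 to 141, 64 counts). All such intervals cover counting error only. In hepatocyte-like cells it was 18.7 (16.9 to 20.7) and 11.3 (10.1 to 12.7), so the ratio was 7.49-fold in section 1 and 9.71-fold in section 2 (mean log2 ratio 3.09 ± 0.26, SD, n = 2). The next highest named class in section 1 was B-lineage-like cells at 37.9 (26.6 to 52.5). Macrophage-like cells (23.9, 14.6 to 37) overlapped them, and endothelial-like (22.7), monocyte/neutrophil-like (18.7) and hepatocyte-like cells overlapped macrophage-like cells. Mesenchymal-like cells were lowest at 4.32 (1.18 to 11.1, 4 counts), which is under the 6.49 of the highest blank in those cells. In section 2 the other classes lay between 11.3 and 26.5, and none of their intervals reached the erythroid-like interval. Endothelial-like cells there had 14.7 on 1 count, which equals the highest blank in those cells.

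The antiproliferative gene Btg2 also peaked in erythroid-like cells, and B-lineage-like cells came closest to them. In erythroid-like cells its level was 220 (207 to 235, 936 counts) in section 1 and 162 (131 to 198, 94 counts) in section 2. Hepatocyte-like cells had 25.6 (23.5 to 27.8) and 18 (16.4 to 19.7), a ratio of 8.62-fold and 8.99-fold (mean log2 ratio 3.14 ± 0.04, SD, n = 2). B-lineage-like cells had 80.1 (63.1 to 100.2) in section 1 and 82.3 (37.7 to 156, 9 counts in 47 cells) in section 2. The erythroid-like level was therefore 2.75-fold and 1.96-fold that of B-lineage-like cells, and in section 2 these intervals overlapped. Monocyte/neutrophil-like (42.6), macrophage-like (34.7) and endothelial-like cells (30.3) followed in section 1 with overlapping intervals, and mesenchymal-like cells had 20.5. In section 2 monocyte/neutrophil-like cells had 11.2 on 2 counts, which equals the highest blank in those cells. Macrophage-like, mesenchymal-like and endothelial-like cells lay between 25.4 and 29.4.

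The tetraspanin gene Cd82 likewise peaked in the erythroid-like class, where it differed more between the sections than Pim1 and Btg2 did. It was 270 (255 to 286, 1148 counts) in section 1 and 136 (108 to 169, 79 counts) in section 2, and these intervals did not overlap. The intervals of Btg2 did not overlap between the sections either, while those of Pim1 did. Hepatocyte-like cells had 27.1 (24.9 to 29.4) and 17.4 (15.8 to 19.1), a ratio of 9.98-fold and 7.83-fold (mean log2 ratio 3.14 ± 0.25, SD, n = 2). Macrophage-like cells had 57.5 (42.4 to 76.2), monocyte/neutrophil-like cells 49.7 (39.2 to 62.1) and B-lineage-like cells 41.1 (29.2 to 56.2) in section 1. These neighbours could not be ordered beyond their intervals, and endothelial-like (32), hepatocyte-like and mesenchymal-like cells (18.4) followed. In section 2 no Cd82 count was found in 47 B-lineage-like or 28 endothelial-like cells, which allows up to 27.4 and 44.1 per 10000 counts. The remaining classes of section 2 lay between 17.4 and 33.5.

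**Figure D1:**
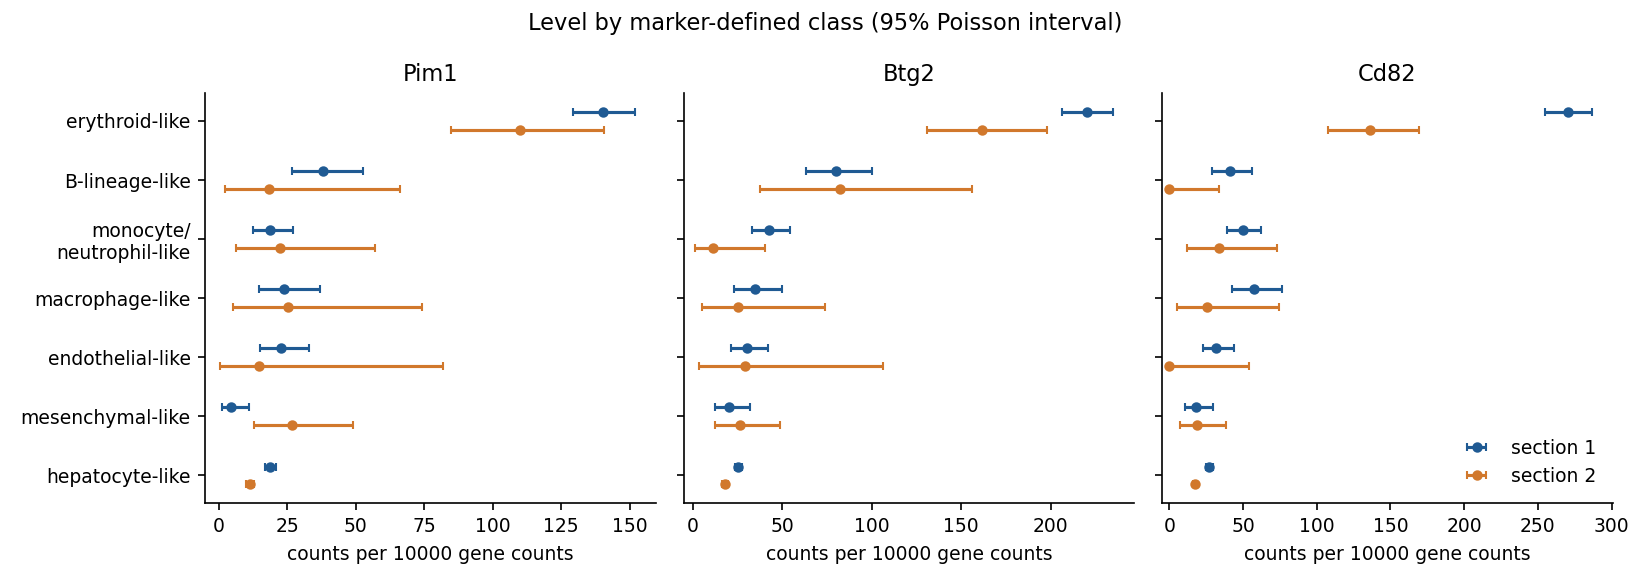
Level of Pim1, Btg2 and Cd82 (x axis, counts per 10000 gene counts) in 7 marker-defined classes (y axis) of section 1 (blue) and section 2 (orange), with exact Poisson 95% intervals as bars. Erythroid-like cells are highest for each gene, from 110 to 140 for Pim1, 162 to 220 for Btg2 and 136 to 270 for Cd82, and B-lineage-like cells come closest for Btg2.

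Erythroid-like cells held 10.9% of all gene counts of section 1 but 37.9% of those of Pim1, 39.5% of Btg2 and 46.6% of Cd82. In section 2 they held 1.94% of all counts and 13.1%, 13.3% and 11.2% of these genes. Most counts of each gene in kept cells thus lay outside the erythroid-like class in both sections. This class leaves out other cells with erythroid markers. The erythroid cluster held 1083 and 362 cells, of which 624 and 147 were in the class. The log2 ratio of erythroid-like over hepatocyte-like cells was ranked among 178 genes on no marker list with at least 100 counts in each section. For it, 1 was added to the summed count of the gene and to the total of each class. By the mean of the sections, Cd82 ranked 5, Btg2 6 and Pim1 7. Mki67 ranked 3, behind E2f2, a transcription factor of the cell cycle, and Emilin2, an extracellular matrix gene. The rule that chose the genes used this contrast.

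A Pim1 count was found in 43% of erythroid-like cells of section 1 and 20.1% of section 2, while hepatocyte-like cells had it in 5.89% and 1.99% at median depths of 29 and 15 counts. For Btg2 the shares were 61.2% and 31.4% against 9.15% and 3.18%. For Cd82 they were 62.8% and 27.9% against 9.87% and 3.12%. In section 1, 22.1% of erythroid-like cells held all 3 genes, 36.4% held 2, 27.8% held 1 and 13.7% held none. In section 2 the shares were 1.31%, 17.5%, 40.6% and 40.6%. Erythroid-like cells of section 1 with Pim1 held Cd82 in 72.8% (67.6 to 77.5) and those without it in 55.2% (50.4 to 59.9), exact binomial intervals. In section 2 the shares were 32.6% (19.5 to 48) and 26.8% (20.5 to 33.8), with overlapping intervals. Btg2 was held by 69.1% of cells with Pim1 and 55.2% without it in section 1. In section 2 the direction was opposite, at 21.7% (10.9 to 36.4) and 33.9% (27.1 to 41.2), with overlapping intervals. Cells with Btg2 held Cd82 in 68.2% and those without it in 54.2% in section 1, and in 33.3% and 25.5% in section 2, where intervals overlapped. A cell with more counts is more likely to hold any gene, and the part of depth in these shares was not tested.

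The erythroid marker Cd24a was among the 5 genes with the most similar pattern over classes for each of the 3 genes. Likeness was Pearson's r of log2(counts per 10000 + 1) over 12 points, the classes with at least 50 cells in a section, among 215 genes. The points share cells, totals and sections, so r is a description. Cd24a and Epor define the erythroid-like class, and the 3 genes were chosen for high counts there. Likeness among these genes thus follows in part from the choice. For Pim1 the closest were Pcif1 (0.92), an enzyme that methylates the mRNA cap, Cd24a (0.89), E2f2 (0.88), Cd82 (0.86) and Btg2 (0.84). For Btg2 they were Tcf3 (0.93), which encodes the E2A transcription factors of B-cell development, Cd24a (0.89), Cd82 (0.88), Mki67 (0.85) and the erythropoietin receptor gene Epor (0.84). For Cd82 they were Cd24a (0.93), E2f2 (0.90), Pcif1 (0.89), the integrin gene Itga4 (0.88) and Btg2 (0.88). Mki67 stood at rank 9 for Cd82 (0.86) and at rank 18 for Pim1 (0.59).

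Other genes of the same pathways differed in their levels in erythroid-like cells. Of a list of cytokine receptor and JAK-STAT genes, 12 are in the panel and 5 had at least 100 counts in each section. Of these, 1 was over 2-fold above hepatocyte-like cells in both sections, Epor. It is a marker that defines the erythroid-like class, so its level there follows from the classing. The median log2 ratio over the 5 was -0.17 in section 1 and 0.43 in section 2. Of the cell cycle and p53 genes, 6 are in the panel and 4 had the counts, and 2 were over 2-fold in both sections, Mki67 and the cyclin-dependent kinase gene Cdk1, with median log2 ratios of 1.28 and 1.64. Of the tetraspanins and their membrane partners, 7 are in the panel and 4 had the counts, and 1 was over 2-fold in both, Itga4, with medians of 0.26 and 0.057. Over all 215 genes with the counts, class markers among them, 40 were over 2-fold in both sections, and the medians were -0.31 and 0.15.

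The profile of all decoded molecules around erythroid-like cells, counted whether or not a segmented cell held them, fell with distance for each gene. The nearest ranges hold the molecules of the erythroid-like cells themselves, where the genes were chosen to be high. The fall thus follows in part from the choice and is a description. Mki67 also fell, from 753 and 233 within 5 µm to 49.8 and 19.1 beyond 80 µm in sections 1 and 2. Within 5 µm of the nearest erythroid-like cell centre, Pim1 was 184 per 10000 gene transcripts in section 1 and 147 in section 2, and beyond 80 µm it was 9.33 and 15.2. Btg2 went from 273 and 214 to 22.6 and 26.2, and Cd82 from 309 and 166 to 22.7 and 21.2. From 10 to 20 µm the levels were already 40.2 and 34.3 for Pim1, 58.2 and 51.4 for Btg2, and 59.7 and 47.7 for Cd82. Most of the fall thus lay within the nearest 20 µm. Lengths are taken to be in µm because cells then have plausible sizes; the headers name no unit.

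**Figure D2:**
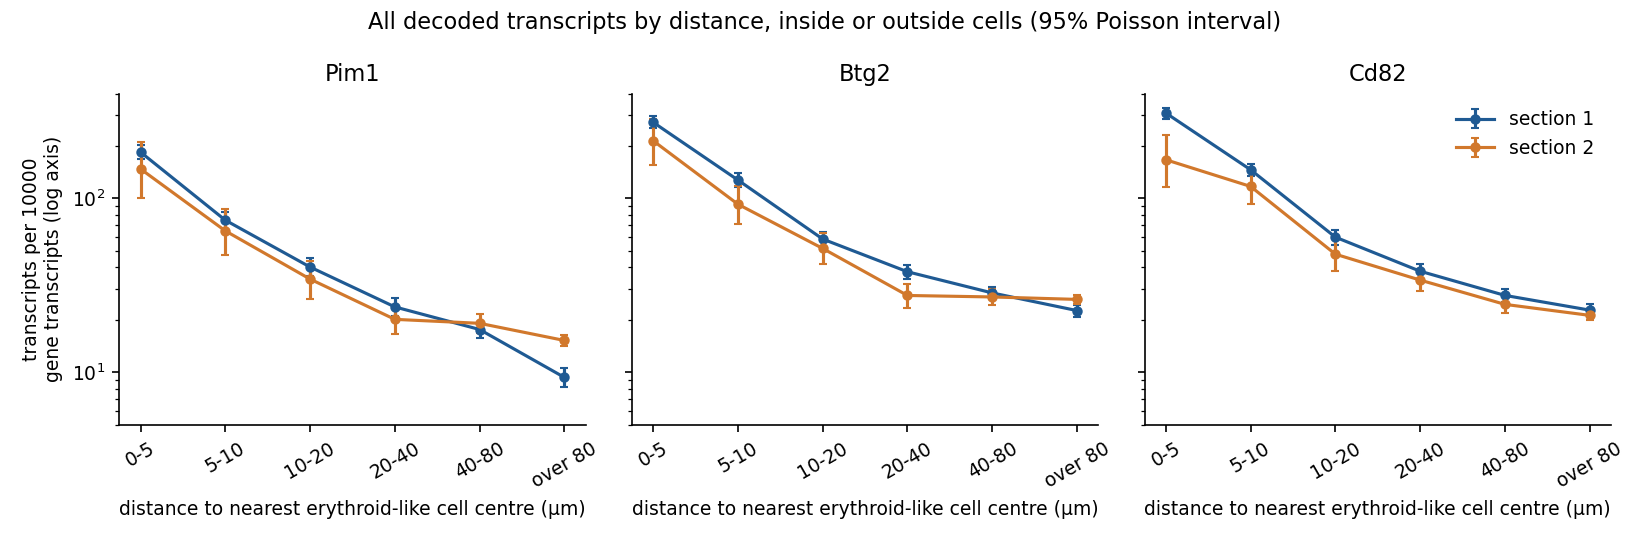
Transcripts of each gene per 10000 gene transcripts (y axis, log scale) against distance to the nearest erythroid-like cell centre in µm (x axis, 6 ranges) in section 1 (blue) and section 2 (orange), with exact Poisson 95% intervals. Each gene is highest within 5 µm, from 147 to 184 for Pim1, and falls in every further range of section 1. The genes were chosen for high counts in erythroid-like cells.

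Cd82 was higher in erythroid-like cells with Mki67 in both sections, beyond the intervals in section 1 only, while Pim1 differed in sign between the sections. In section 1, 86.1% of erythroid-like cells (654 of 760) held an Mki67 count, and in section 2, 32.3% (74 of 229). Levels in this comparison are per 10000 counts other than Mki67. Cd82 was 300 (282 to 318) in Mki67-positive and 176 (135 to 226) in Mki67-zero cells of section 1, and 192 (136 to 264) and 110 (78.7 to 149) in section 2. The log2 ratio (with 0.5 counts added) was 0.75 and 0.81, mean 0.78 ± 0.04 (SD, n = 2), where the median of all genes was 0.05 over 109 genes and -0.07 over 26 genes. It was 0.35 when erythroid-like cells needed 1 more marker count, 0.52 when every cell was thinned to 10 counts, and 0.48 with Klf1 left off the marker list, the last chosen after seeing the data.

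Btg2 was 239 (223 to 255) in Mki67-positive and 202 (158 to 255) in Mki67-zero cells of section 1, and 182 (128 to 252) and 155 (118 to 200) in section 2. Both log2 ratios were positive, at 0.23 and 0.24, but the intervals overlapped, and the mean was 0.11 with 1 more marker count required. Pim1 was 151 (139 to 164) and 137 (101 to 181) in section 1, and 75.9 (42.5 to 125) and 131 (96.9 to 173) in section 2. Its log2 ratio was 0.13 in section 1 and -0.75 in section 2, with overlapping intervals in each. Mki67-positive cells were deeper, with a median of 43 against 28 other counts in section 1 and 23 against 21 in section 2.

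By the number of Mki67 counts, Cd82 in section 1 went from 176 at 0 to 251 at 1 and 317 at 2 to 3, and was 300 at 4 to 7 and 302 at 8 or more. The step between 0 and 2 to 3 counts exceeded the intervals, and the last 3 levels did not differ beyond theirs. Pim1 stayed between 137 and 157 and Btg2 between 202 and 252 over the same steps. In section 2 Cd82 was 110 at 0, 167 at 1 and 273 at 2 to 3, the last from 19 cells with an interval of 149 to 458. With each cell thinned to 10 counts, a Cd82 count was found in 24.5% of Mki67-positive (652 cells, 2 left out) and 15.1% of Mki67-zero cells (106, 0 left out) of section 1. In section 2 the shares were 18.3% (71 cells, 3 left out) and 14.2% (155, 0 left out), and the intervals overlapped in both sections. Unthinned, they were 67.1% and 35.8%, and 37.8% and 23.2%.

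**Figure D3:**
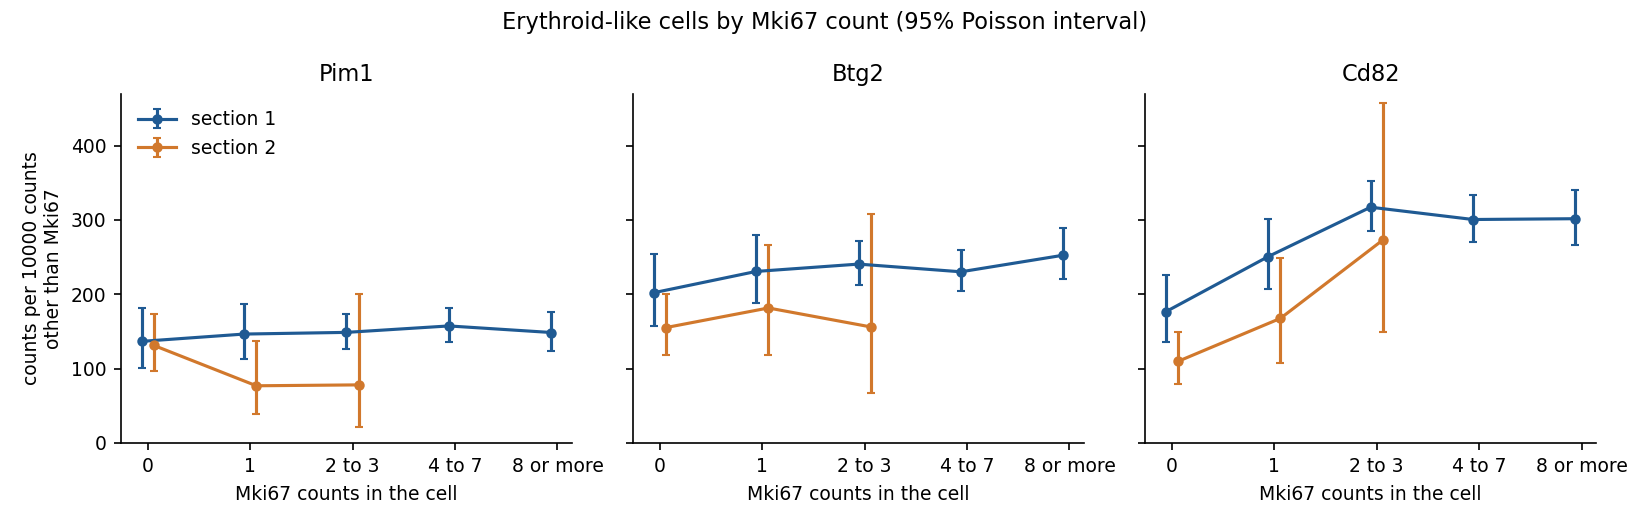
Level of each gene (y axis, counts per 10000 counts other than Mki67) in erythroid-like cells grouped by their Mki67 count (x axis) in section 1 (blue) and section 2 (orange), with exact Poisson 95% intervals. Cd82 goes from 176 to 302 in section 1 and Pim1 stays between 137 and 157; the 1 cell of section 2 with 4 to 7 Mki67 counts is not drawn.

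Among hepatocyte-like cells, all 3 genes were higher where an Mki67 count was present. In section 1 Pim1 was 28.2 in 795 Mki67-positive and 15.6 in 3906 Mki67-zero cells, Btg2 39.3 and 20.9, and Cd82 44.3 and 21.2. In section 2 Pim1 was 30.0 in 358 and 10.8 in 13085 cells, Btg2 41.7 and 17.3, and Cd82 56.0 and 16.1. None of these pairs of intervals overlapped, and each level in Mki67-positive hepatocyte-like cells was under that of Mki67-zero erythroid-like cells. The Mki67-positive cells had a median of 48 against 27 other counts in section 1 and 17 against 15 in section 2. With cells thinned to 10 counts, the Pim1 shares of section 1 overlapped in their intervals and the other pairs did not. By log2 ratio among 276 and 261 genes, Pim1 ranked 25 and 17, Btg2 19 and 25, and Cd82 13 and 11. Mki67 itself was 10.6-fold and 10.9-fold higher in erythroid-like than in hepatocyte-like cells, and the part of erythroid RNA here was not tested.

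The position of the molecules in the plane of the cell differed among the genes. Of the Pim1 transcripts in erythroid-like cells, 50% (45.9 to 54.1, exact binomial interval, 596 transcripts) lay within 4 µm of the cell centre in section 1 and 29.7% (18.9 to 42.4, 64 transcripts) in section 2. For Btg2 the shares were 47.3% (44.1 to 50.6) and 27.7% (18.9 to 37.8), and for Cd82 39.8% (37 to 42.7) and 24.1% (15.1 to 35). The erythroid markers of the same cells had 44.3% (42.9 to 45.6) and 29.3% (26.4 to 32.3). In section 1 Pim1 was thus above the markers and Cd82 below them, narrowly beyond these intervals, and in section 2 no gene differed from the markers beyond its interval. The intervals take transcripts as independent, although the 596 Pim1 transcripts lay in 327 cells, so they are too narrow where transcripts of a cell are alike. Within 3 µm in section 1 the intervals of Pim1 (26.05 to 33.5) and the markers (23.8 to 26.11) overlapped. Within 5 µm and within 0.5 cell radii they did not.

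Hepatocyte markers counted in the same erythroid-like cells lay within 4 µm in 22.4% (21.4 to 23.4) and 12.3% (10.6 to 14.1), below each of the 3 genes. The genes sat nearer to the centre than these hepatocyte transcripts in both sections. Ranked from the most central among 110 genes in section 1, Pim1 was at 5, Btg2 at 13 and Cd82 at 47, and among 27 genes in section 2 they were at 5, 10 and 13. In hepatocyte-like cells Pim1 was again the most central of the 3, with 55.4% (50.4 to 60.4) and 47.0% (41.1 to 53), while all genes had 45.2% and 35.1%. Btg2 had 50.6% and 36.5% there, and Cd82 47.4% and 37.2%. Over all segmented cells Pim1 had 54.1% (51.7 to 56.6) and 50.7%, Btg2 50.3% and 44.8%, and Cd82 44.1% and 39%. The difference between Cd82 and the markers shrank from -4.86 percentage points (mean of the sections) to -0.66 with a limit of 3 µm and -1.26 with a limit of 0.5 cell radii.

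**Figure D4:**
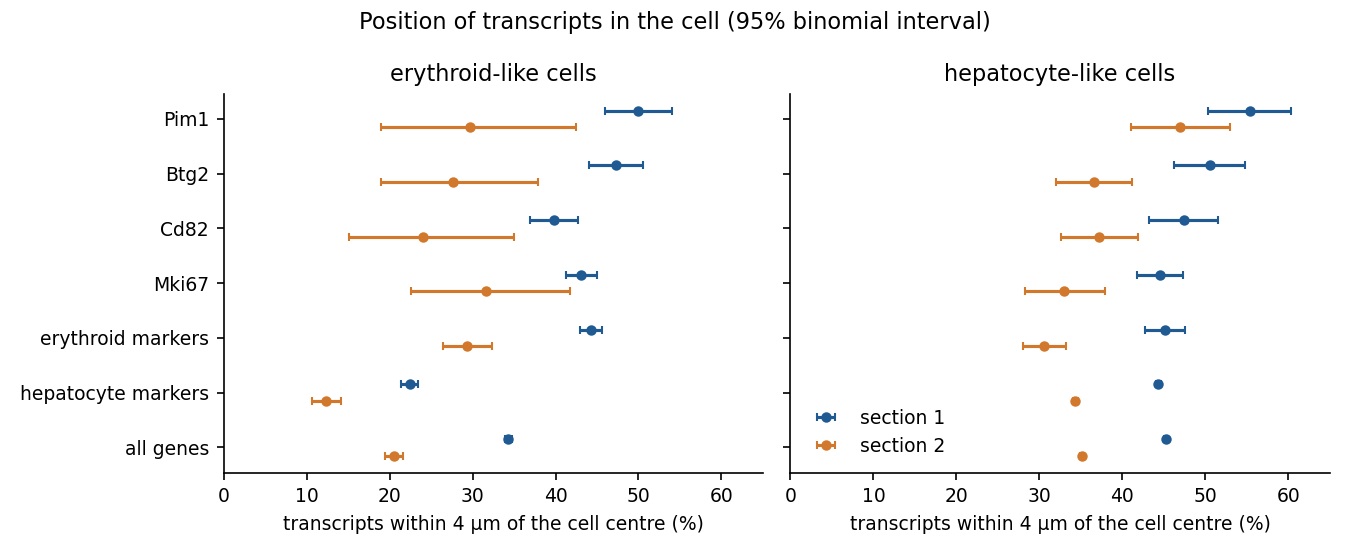
Share of transcripts within 4 µm of the cell centre (x axis, percent) for each gene and marker list (y axis) in erythroid-like cells (left) and hepatocyte-like cells (right) of section 1 (blue) and section 2 (orange), with exact binomial 95% intervals. In erythroid-like cells Pim1 reaches 50% in section 1 and hepatocyte markers stay at 22.4%, while in hepatocyte-like cells hepatocyte markers reach 44.3%.

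Place and volume were not used to choose the genes and were tested. For hepatocyte-like cells, distance to erythroid-like cells is still tied to the choice, since the genes were chosen for high counts in erythroid-like cells. Cells of a class were cut into 3 equal bins in each section, counts were summed per bin, and the outer bins were compared over all testable genes with edgeR's quasi-likelihood test, the section as a block and Benjamini-Hochberg adjustment at 0.05. Of 5 such comparisons, the genes passed the test in 1.

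Within the erythroid-like class none of the 3 genes passed the test with crowding, nearness to macrophage-like cells or volume, which does not show that they did not differ. In the most against the least crowded bin, by distance to the third nearest erythroid-like cell (medians 25.4 against 132 µm in section 1, and 49.6 against 314 µm in section 2), the log2 difference was 0.0042 (SE 0.27) for Pim1, -0.12 (SE 0.22) for Btg2 and 0.10 (SE 0.20) for Cd82. Pim1 was 142, 132 and 148 per 10000 from the sparse to the crowded bin of section 1, and 105, 144 and 84.3 in section 2, and the levels of the outer bins overlapped in their intervals. No gene of 117 (0%) was called by edgeR, which had 3 at an unadjusted p under 0.05, and DESeq2 called 0 with 1 unadjusted. The adjusted p of all 3 genes was 0.991. The difference of Cd82 moved most with the setting, to 0.43 (SE 0.14, edgeR adjusted p = 0.515) with classes from clusters and 0.47 (SE 0.27, adjusted p = 0.649) with 5 bins.

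In erythroid-like cells near against far from macrophage-like cells (medians 67.1 against 225 µm in section 1, and 76.7 against 354 µm in section 2), Cd82 had a log2 difference of 0.36 (SE 0.19), Btg2 of 0.28 (SE 0.19) and Pim1 of -0.11 (SE 0.20), all with an edgeR adjusted p of 0.987. Cd82 was 238, 272 and 298 per 10000 from the far to the near bin of section 1, and 114, 176 and 120 in section 2. In section 1 the interval of the near bin (271 to 327) lay above that of the far bin (213 to 266), and in section 2 they overlapped (77.3 to 176 and 70.4 to 174). No gene of 117 (0%) was called by edgeR, which had 4 at an unadjusted p under 0.05, and DESeq2 called 0 with 1 unadjusted. When classes came from clusters, Btg2 and Cd82 changed sign, to -0.17 and -0.21.

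In the largest against the smallest erythroid-like cells, the log2 difference was -0.24 (SE 0.26) for Pim1, -0.13 (SE 0.21) for Btg2 and -0.24 (SE 0.20) for Cd82, with edgeR adjusted p-values of 0.947, 0.979 and 0.947. Cd82 was 303, 256 and 264 per 10000 from the small to the large bin of section 1, and 123, 165 and 124 in section 2. In this comparison 3 of 117 genes (2.56%) were called, named here after their values were seen, and 0 were called with DESeq2, at least 20 counts, clusters, a filter of 1 count or no block. Cd74, the invariant chain of antigen presentation, and the collagen gene Col1a1 were higher in large cells, by 2.71 (SE 0.67, adjusted p = 0.00847) and 1.44 (SE 0.42, adjusted p = 0.0364). Cd24a was lower, by -0.42 (SE 0.13, adjusted p = 0.0446). Of the pathway lists, 8 genes were tested in each of these 3 erythroid-like comparisons and 0 passed in any.

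Along the lobule, the hepatocyte-like cells on the pericentral side were compared with those on the periportal side, by landmark genes of their neighbours. Btg2 was 26.6, 32.5 and 21.1 per 10000 from the periportal to the pericentral bin of section 1, and 18.6, 20.2 and 13.7 in section 2, so the middle bin was highest in both. Its log2 difference was -0.41 (SE 0.16) and missed the threshold (edgeR, adjusted p = 0.0782), with the same direction in both sections. It was -0.10 (SE 0.19) in cells with at least 20 counts and -0.21 (SE 0.20) with classes from clusters. Pim1 (-0.16, SE 0.19) and Cd82 (-0.07, SE 0.15) had adjusted p-values of 0.696 and 0.856. In this comparison 40 of 314 genes (12.7%) were called. Of the cytokine receptor and JAK-STAT list, 8 genes were tested. Csf1r, the macrophage growth factor receptor gene, was higher on the pericentral side (0.60, SE 0.17, adjusted p = 0.00433). Epor was lower (-0.73, SE 0.22, adjusted p = 0.00881). Of the cell cycle list 0 of 5 and of the tetraspanin list 0 of 5 passed.

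Hepatocyte-like cells near erythroid-like cells had more of all 3 genes than those far from them. The bins follow distance to the class in which the genes were chosen to be high, so this result is tied to the choice. The near and far bins lay at medians of 25.1 and 145 µm in section 1 and 50.3 and 294 µm in section 2. Pim1 was 10.6, 17 and 25.9 per 10000 in the far, middle and near bins of section 1, and 8.63, 10.4 and 14.2 in section 2. It increased at each step in both sections, with a log2 difference of 0.995 (SE 0.19, edgeR adjusted p = 2.61e-05). Cd82 was 21, 23.2 and 35 in section 1 and 13.9, 16.4 and 20.9 in section 2, a log2 difference of 0.65 (SE 0.16, adjusted p = 0.00477). Btg2 was 20.6, 18.1 and 36.1 in section 1 and 15.7, 17.3 and 20.3 in section 2, a log2 difference of 0.59 (SE 0.16, adjusted p = 0.0128). For Btg2 the middle bin of section 1 was not above the far bin.

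Within sections the log2 difference was 1.27 and 0.70 for Pim1, 0.80 and 0.37 for Btg2, and 0.73 and 0.58 for Cd82. Of 352 genes tested, 12 (3.41%) were called, 10 higher and 2 lower in the near bin. The 10 include the 3 genes, Mki67 (0.99, SE 0.14), E2f2 (1.03, SE 0.15) and the erythroid markers Car2 (1.12, SE 0.20), Cd24a (0.96, SE 0.18) and Epor (0.76, SE 0.22). The others, named after their values were seen, were Dennd4a (1.10) and Prkcsh (0.56), and H2-Ab1 (-0.97) and Rab17 (-0.82) were lower. In sections 1 and 2 the log2 ratio of erythroid-like over hepatocyte-like cells was 3.57 and 3.79 for E2f2 and 2.61 and 2.92 for Dennd4a. That ratio was 1.45 and 0.28 for Prkcsh, -0.52 and 0.32 for H2-Ab1, and -1.50 and 0.55 for Rab17. H2-Ab1 was lower by -1.29 in section 1 and by only -0.036 in section 2. Klf1, also an erythroid marker, did not pass (-0.21, SE 0.16, adjusted p = 0.547). Among all decoded molecules, Klf1 was 278 and 418 per 10000 within 5 µm of an erythroid-like cell centre. From 40 to 80 µm it was 63.8 and 28.1, but beyond 80 µm it was higher again, at 139 and 71.9. Of the pathway lists 1 of 8 cytokine and JAK-STAT genes (Epor), 1 of 5 cell cycle genes (Mki67) and 0 of 5 tetraspanin genes passed.

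Erythroid markers in these hepatocyte-like cells moved with the result. Their sum was 74.2, 59.1 and 104 per 10000 in the far, middle and near bins of section 1, and 43.9, 45.2 and 63.3 in section 2. Without Klf1 it was 29.4, 34.5 and 66.2, and 29.3, 34.3 and 50.1. The median count per cell was 22, 32 and 37, and 14, 16 and 17. The part of these in the result was not tested. With only transcripts within 4 µm of the cell centre, the differences were 1.16 for Pim1, 0.73 for Cd82 and 0.63 for Btg2, and Btg2 no longer passed (adjusted p = 0.0791). None of the 3 passed with DESeq2 (adjusted p = 0.132, 0.663 and 0.356 for Pim1, Btg2 and Cd82) or without the section as a block (0.998 for each), although the differences stayed between 0.55 and 1.01. In the near bin of section 1 the Pim1 level of 25.9 stood against 140 in erythroid-like cells.

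**Figure D5:**
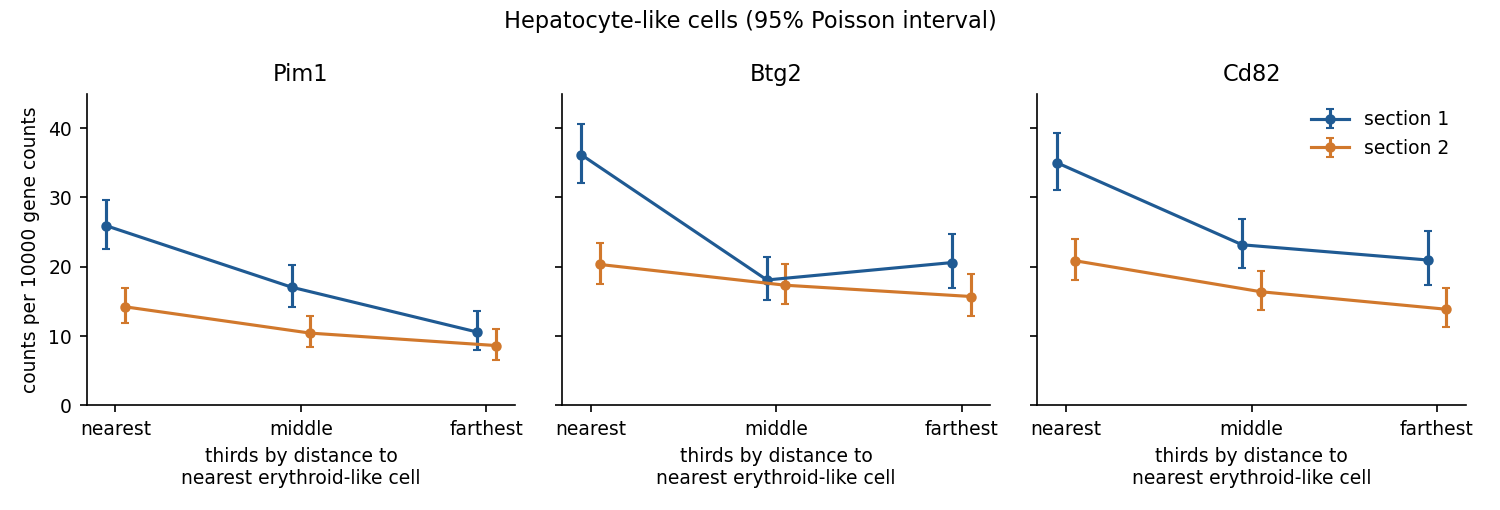
Level of each gene (y axis, counts per 10000 gene counts) in hepatocyte-like cells in 3 equal bins by distance to the nearest erythroid-like cell (x axis) in section 1 (blue) and section 2 (orange), with exact Poisson 95% intervals. Pim1 is 25.9 in the nearest and 10.6 in the farthest bin of section 1 and 14.2 and 8.63 in section 2.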

How the data were processed

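Each section has a deposited table of raw counts, per the file headers, with a row for each segmented cell and columns for 500 genes and 50 blanks, which were left out of totals and tests. The deposited transcript lists and cell tables give positions and volumes, whose unit is not in the headers, and a stain signal per cell, which the authors deposited and which was not used. No source used here names the decoding or segmentation software. Recounting the transcripts by cell gave the deposited counts in every cell.

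The genes, marker lists, pathway lists and tests were chosen with earlier results of these data known. Cells with at least 10 gene counts and a volume of at least 50 were kept. A class needed at least 3 marker counts from at least 2 markers and at least 5% of the cell's counts, a hepatocyte-like cell at least 25% and no other list; cells meeting 2 or more other lists (93 and 13) were set aside, no doublet caller was run, and 2817 and 2232 cells stayed unnamed. These limits were set after the marker counts were viewed. A further erythroid marker that entered the classing is not reported here. Section 2 had 47 B-lineage-like and 28 endothelial-like cells, so their levels rest on few counts.

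Counts were summed per section and bin and tested with edgeR 4.0.16 (quasi-likelihood, TMM, genes with at least 50 counts, section as a block, since both bins lie in the same section), checked on simulated data. Only 3 bins in each of 2 sections enter a fit. DESeq2 1.42.0, other filters, 5 bins, no block and Leiden clusters (made without the 3 genes and Mki67) were alternatives. The rule naming clusters was changed after its outcome was seen: only the best-scoring cluster took each name other than hepatocyte. Named were the 3 genes, the 5 most alike in pattern to each, Mki67 and any pathway gene that passed a test; further genes are named as markers, for their rank, or after their values were seen. Proportions have exact Clopper-Pearson and levels exact Poisson 95% intervals. Promoter sequences are from RefSeq; all 3 genes matched by symbol.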

Additional observations from a re-analysis of the deposited data

How the results depend on the processing

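The log2 ratio of erythroid-like over hepatocyte-like cells kept its sign under every alternative run for it. With totals that leave out all marker genes it was 2.79 for Pim1, 2.84 for Btg2 and 2.84 for Cd82. With classes from clusters it was 3.36 for Pim1 and 3.36 for Btg2. For Btg2, whose sections differed by little, it was also 3.30 in cells with at least 20 counts, 3.22 with 1 more marker count and 3.20 without Klf1 as a marker. Leaving out a section gave 2.91 to 3.28 for Pim1, 3.11 to 3.17 for Btg2 and 2.97 to 3.32 for Cd82. The log2 ratio of Mki67-positive over Mki67-zero erythroid-like cells was 0.35 to 0.997 for Cd82, with 0.997 in cells with at least 20 counts, 0.52 after thinning, 0.48 without Klf1 and 0.35 with 1 more marker count. For Btg2 these were 0.31, 0.23, 0.22 and 0.11. Leaving out a section gave -0.75 to 0.13 for Pim1, 0.23 to 0.24 for Btg2 and 0.75 to 0.81 for Cd82. The centre share of Cd82 minus that of the erythroid markers was -0.66 points within 3 µm, -4.03 within 5 µm and -1.26 within 0.5 radii, and that of Btg2 was 5.02 within 0.5 radii. Leaving out a section gave 0.37 to 5.74 points for Pim1, -1.66 to 3.07 for Btg2 and -5.27 to -4.45 for Cd82.

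Both bins of a comparison lie in each section, so the section pairs them and is a block in the fits reported. Without the block, 0 genes were called in each of the 5 comparisons, and for hepatocyte-like cells near erythroid-like cells Pim1 was 1.01, Btg2 0.59 and Cd82 0.66, with an edgeR adjusted p of 0.998. With DESeq2 they were 0.95, 0.55 and 0.61 and 3 genes were called, against 12 with edgeR. In cells with at least 20 counts 6 genes were called there, and Btg2 (0.63, adjusted p = 0.124) and Cd82 (0.64, adjusted p = 0.0941) lost the call while Pim1 kept it. Btg2 also lost it with classes from clusters (0.68, adjusted p = 0.108), with 5 bins (0.70, adjusted p = 0.0534) and within 4 µm of the centre (0.63). Leaving out a section gave 0.70 to 1.27 for Pim1, 0.37 to 0.80 for Btg2 and 0.58 to 0.73 for Cd82, with no test.

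Of the differences that did not pass, those with crowding changed sign: Pim1 was -0.026 without TMM, -0.057 without the block and -6.7e-05 in cells with at least 20 counts, and Btg2 was 0.056 with clusters and 0.057 with 5 bins, while Cd82 went from 0.10 to 0.43 and 0.47 there. With nearness to macrophage-like cells and classes from clusters Btg2 was -0.17 and Cd82 -0.21. On the pericentral side Pim1 was 0.19 in cells with at least 20 counts. Leaving out a section gave, for Pim1, Btg2 and Cd82, -0.31 to 0.061, -0.47 to -0.024 and -0.10 to 0.12 with crowding, -0.45 to -0.12, 0.10 to 0.61 and 0.070 to 0.32 near macrophage-like cells, -0.27 to 0.13, -0.14 to 0.30 and -0.19 to 0.010 with volume, and -0.46 to 0.22, -0.43 to -0.33 and -0.19 to 0.08 on the pericentral side. Genes called with volume fell from 3 to 0 with DESeq2, at least 20 counts, clusters, a filter of 1 count or no block. On the pericentral side 21 genes were called with DESeq2 and 22 in cells with at least 20 counts, against 40. With crowding 1 gene was called under a filter of 1 count, and near macrophage-like cells 1 with clusters. The causes were not tested. Depth limits section 2 most, where 64 Pim1, 94 Btg2 and 79 Cd82 counts lay in erythroid-like cells.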

Other observations

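Fewer molecules of the 3 genes than of the panel lay outside segmented cells. Of the decoded Pim1 transcripts, 89.0% lay in a cell in section 1 and 78.5% in section 2. For Btg2 the shares were 83.2% and 72.9%, and for Cd82 79.0% and 71.6%, while all genes together had 59.9% and 65.6%. Mki67 had 78.2% and 76.4%, so a share above that of the panel was not particular to the 3 genes.

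Kept cells that met no marker list held more of the 3 genes per count than hepatocyte-like cells. In these 2817 and 2232 cells Pim1 was 56.9 (51.5 to 62.7) and 34.2 (28.4 to 40.9) per 10000 gene counts, Btg2 was 81.3 (74.9 to 88.2) and 39.1 (32.8 to 46.2), and Cd82 was 63.7 (58.0 to 69.8) and 49.6 (42.5 to 57.6). Their median depth was 18 and 13 counts, and in section 2 the highest blank reached 56.7 per 10000 in them, above each of the 3 genes. Erythroid markers were at 274 and 377 per 10000 in these cells, against 79.9 and 51.6 in hepatocyte-like cells. The part of erythroid cells in these levels was not tested.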
